A study of Mus musculus with 12 samples.

Results

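Alox12, Alox5ap, Ltc4s, Ptgs2, Ptgis, Hpgd, Slco2a1 and Tbxa2r are 8 genes of eicosanoid synthesis, transport and reception, described here in liver sinusoidal endothelial cells of the mouse. They were taken by gene symbol from 25428 probe sets of an Affymetrix expression array, 1 probe set each, and all 8 were measured. The symbols were picked with the difference between the study's groups already known, so the differences of these 8 genes are given as descriptions, without a test. The study compared 6 Control samples with 6 samples called NICD-OE-HEC, from mice with Clec4g-Cre (tg/wt) and the Rosa26-N1ICD-IRES-GFP allele. In these mice Cre under Clec4g regulatory sequence is active in hepatic endothelium and switches on N1ICD, the active inner part of Notch1, together with GFP. The labels give the Control genotype only as Ctrl and give no age or treatment for either group. Each sample held cells pooled from 3 mice, enriched over a Nycodenz gradient and selected with magnetic beads against CD146, the product of Mcam.

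Eicosanoids are short-lived lipid signals made from arachidonic acid, a fatty acid that phospholipases free from membranes. Cyclooxygenases turn it into prostaglandin H, from which separate synthases make prostaglandins, prostacyclin and thromboxane, while lipoxygenases turn it into leukotrienes and hydroxy fatty acids. These products act on G protein-coupled receptors nearby, and prostaglandins are removed by uptake through Slco2a1 and oxidation by Hpgd. In the liver they adjust sinusoidal tone, platelet adhesion and leukocyte traffic, and endothelium both makes and clears them.

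The values are log2 expression levels after RMA normalization, so a difference of 1 is a doubling on the linear scale. They are comparable between arrays for 1 gene and not between genes. In the NICD-OE-HEC samples 5 of the 8 genes were lower and did not overlap with Control: Alox12, Slco2a1, Ltc4s, Tbxa2r and Hpgd. Of all probe sets, 6.68% did not overlap, 3.70% with lower and 2.98% with higher NICD-OE-HEC values. Ptgs2 was higher, with a small overlap, and Alox5ap and Ptgis overlapped broadly. These are mixed cell preparations, in which fewer cells of a type and less RNA per cell cannot be told apart.

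**Figure D1:**
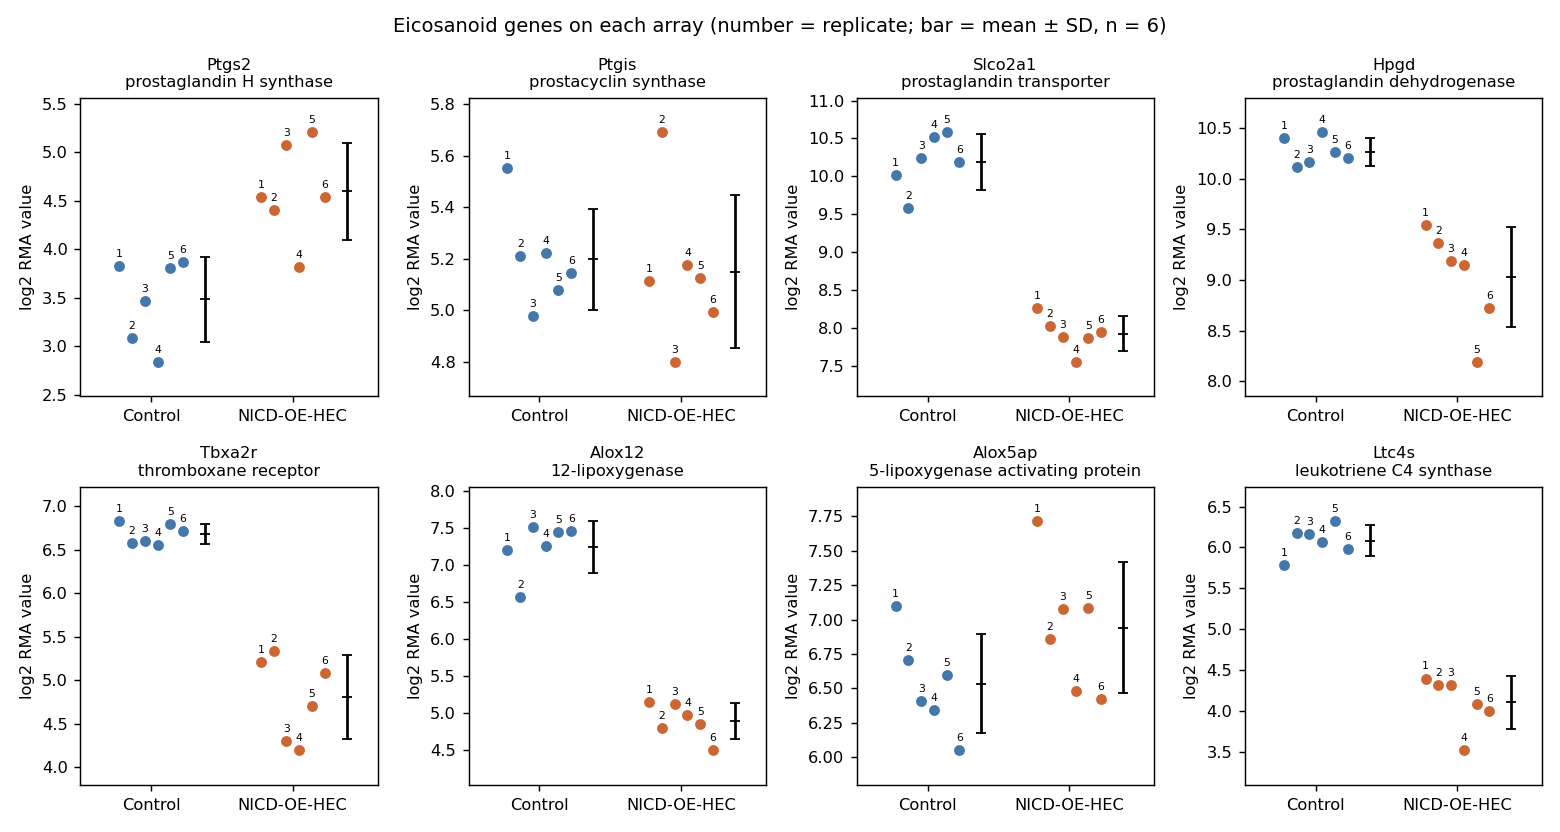
The log2 RMA value of each of the 8 genes is plotted for every array, 6 Control in blue and 6 NICD-OE-HEC in orange, numbered by replicate, with the group mean and SD as a bar. Slco2a1, Hpgd, Tbxa2r, Alox12 and Ltc4s show all orange points below all blue points, Ptgs2 shows the orange points mostly above, and Ptgis and Alox5ap show mixed points.

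The DNA around the start sites was searched for the motif of RBPJ, the DNA-binding partner of the active Notch1 domain. RefSeq start site windows of GRCm38.p6, 250 bases before to 50 bases after a start, were matched for 6 of the 8 genes in 7 windows (Tbxa2r has 2). The RBPJ core TGGGAA, searched on both strands, was found in 4 of the 7 windows and in 25.6% of all 32851 windows of that length. Those 4 windows belong to Alox12, Ltc4s and Tbxa2r, the last counted with 2 windows. The genes were picked with the group difference known, and a part of RBPJ in their values was not tested. Its longer form GTGGGAA, which holds the core, was in both Tbxa2r windows and in 6.4% of all windows. The first stretch is chr11:70255371-70255620 on the minus strand, the second chr11:50238533-50238652 on the minus strand and the third chr10:81328018-81328137 on the plus strand. Capitals mark TGGGAA or its reverse complement TTCCCA in the first and second stretch, and GTGGGAA in the third.
Alox12: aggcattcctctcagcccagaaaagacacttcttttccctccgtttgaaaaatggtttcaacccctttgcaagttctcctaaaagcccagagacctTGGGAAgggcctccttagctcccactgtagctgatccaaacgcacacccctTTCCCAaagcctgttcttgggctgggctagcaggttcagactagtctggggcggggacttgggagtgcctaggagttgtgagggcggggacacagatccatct
Ltc4s: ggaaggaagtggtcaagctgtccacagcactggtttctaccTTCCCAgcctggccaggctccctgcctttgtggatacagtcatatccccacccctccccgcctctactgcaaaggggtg
Tbxa2r: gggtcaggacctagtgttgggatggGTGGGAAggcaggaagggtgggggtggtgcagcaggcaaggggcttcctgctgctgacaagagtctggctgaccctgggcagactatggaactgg

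These matches describe letters in a window and are not shown to be bound sites. The windows of Slco2a1, Hpgd and Ptgs2 do not hold the letters TGGGAA on either strand, which says nothing about RBPJ elsewhere at these genes. The TATA box letters TATAAA, searched on both strands, were present in 13.6% of all windows. They were found in the windows of Slco2a1, from base -29, and of Hpgd, from base 5, past its annotated start. The E-box CACGTG, the kind of site that basic helix-loop-helix factors bind, was present in 7.2% of windows and found for Ptgs2, the member that was higher, just inside its annotated start. The letters TGANTCA (N is any base), TGACGTCA and AGATAA stand here for the AP-1, CREB and GATA families. Searched on both strands, they were in 0 of the 7 windows and in 7.8%, 1.8% and 11.2% of all windows. Only these full letters were searched, so shorter or variant sites of the families were not covered. The stretch of Slco2a1 is chr9:103008446-103008475 and that of Ptgs2 is chr1:150100031-150100060, both on the plus strand, with TATAAA and CACGTG in capitals. The first lies before a start inside the Slco2a1 gene record, which begins further upstream, and the second is the first 30 bases of the Ptgs2 gene record. The stretches of Ltc4s and Tbxa2r lie before the gene record, and the last bases of that of Alox12 lie inside its record.
Slco2a1: atcgctgccactTATAAAaacttctgggcg
Ptgs2: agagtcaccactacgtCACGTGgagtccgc

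Slco2a1 encodes the transporter that takes prostaglandins from the blood into the cell. Its log2 values in Control were at least 9.58, with a median of 10.21 and a maximum of 10.58. In NICD-OE-HEC the lowest was 7.55, the median 7.91 and the highest 8.26. Every NICD-OE-HEC sample was therefore lower than every Control sample, and 1.31 log2 units separated the nearest of them. The group means were 10.19 ± 0.37 and 7.92 ± 0.23 (SD, n = 6 each), a log2 difference of -2.27 (SE 0.16), or 4.81-fold lower. Control 2 had the lowest Control value, and it is one of a pair of arrays, with NICD-OE-HEC 4, that stood apart on the second principal component of all probe sets. Without both, the log2 difference of Slco2a1 was -2.32.

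Hpgd encodes the prostaglandin dehydrogenase, which inactivates prostaglandins once they are inside. Its Control values lay within a narrow band from 10.11 through a median of 10.23 to 10.46. The NICD-OE-HEC values ran from 8.19 through a median of 9.17 to 9.55, again all below Control. The means were 10.27 ± 0.14 and 9.03 ± 0.49 (SD, n = 6 each), with a log2 difference of -1.24 (SE 0.18), 2.36-fold lower. NICD-OE-HEC 5 was lowest and NICD-OE-HEC 1 highest.

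Hpgd is also expressed by some macrophages, so its values were set beside 10 markers of Kupffer cells and macrophages. By limma 0 of the 10 were called between groups, with 3 higher at an unadjusted p under 0.05, and their mean log2 value ran from 7.83 to 9.15 in Control and from 8.0 to 9.45 in NICD-OE-HEC. Clec4f, the lectin that marks Kupffer cells, was 9.53 ± 0.53 in Control and 9.80 ± 0.57 in NICD-OE-HEC (SD, n = 6 each). The 6 NICD-OE-HEC arrays had the same order for Hpgd and for this mean, from NICD-OE-HEC 1 (Hpgd 9.55, marker mean 9.45) to NICD-OE-HEC 5 (8.19 and 8.0). In Control the order was not shared, since Control 1 had the highest marker mean, 9.15, while Hpgd was highest on Control 4. The mean of the hepatocyte markers was also highest on NICD-OE-HEC 1 (8.02) and lowest on NICD-OE-HEC 5 (6.68). The mean of early response genes, given with Ptgs2 below, ran the other way within NICD-OE-HEC. It was lowest on NICD-OE-HEC 1 (8.09) and highest on NICD-OE-HEC 5 (9.89). In Control it was lowest on Control 4 (6.71), where Hpgd was highest, and highest on Control 5 (8.24), where Hpgd was not lowest. The part of macrophages, hepatocytes or early response induction in the Hpgd values was not tested.

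**Figure D2:**
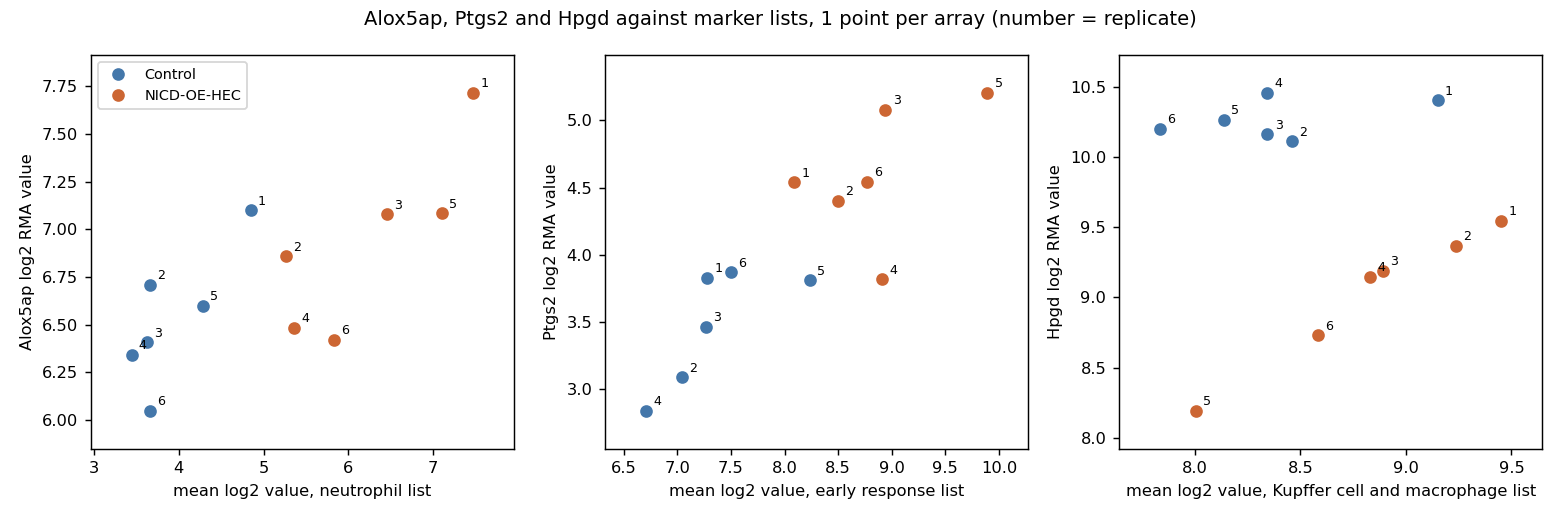
The log2 RMA value of Alox5ap, Ptgs2 and Hpgd is plotted against the mean log2 value of the neutrophil, early response and macrophage list, 1 point per array, with Control in blue and NICD-OE-HEC in orange. Alox5ap is highest on NICD-OE-HEC 1, where the neutrophil mean is 7.48, and the orange points of Hpgd and the macrophage mean share 1 order, from NICD-OE-HEC 5 at the bottom to NICD-OE-HEC 1 at the top.

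Ptgs2 encodes the inducible cyclooxygenase, which makes prostaglandin H and responds early to stress and inflammation. Its log2 values ran from 2.84 through a median of 3.64 to 3.87 in Control. In NICD-OE-HEC they ran from 3.82 through a median of 4.54 to 5.21. The groups touched at NICD-OE-HEC 4, the only sample below the highest Control. The means were 3.48 ± 0.43 and 4.60 ± 0.50 (SD, n = 6 each), a log2 difference of 1.12 (SE 0.23). The Control mean is below 3.67, the median of all probe sets on an array, and signal that dim may be background, so 2.17-fold higher is not an exact size.

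Genes of the early response, which handling of cells also induces, were higher on the same arrays. Of 11 listed, 9 were called higher at an adjusted p under 0.05 by limma, among them Egr1, a transcription factor induced within minutes of stimulation, and their mean ran from 6.71 to 8.24 in Control and from 8.09 to 9.89 in NICD-OE-HEC. Ptgs2 and the early response mean were both highest on NICD-OE-HEC 5 and both lowest on Control 4. Within NICD-OE-HEC the order was not shared, since Ptgs2 was lowest on NICD-OE-HEC 4 (3.82) and the early response mean on NICD-OE-HEC 1 (8.09). Of 11 neutrophil markers, 10 were called higher, with a mean between 3.44 and 4.85 in Control and between 5.26 and 7.48 in NICD-OE-HEC. The part of early response induction or of neutrophils in the Ptgs2 difference was not tested.

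Ptgis encodes prostacyclin synthase, whose product relaxes vessels and restrains platelets. It was 5.20 ± 0.20 in Control and 5.15 ± 0.30 in NICD-OE-HEC (SD, n = 6 each), a log2 difference of -0.05 (SE 0.14). The Control values spanned 4.98 to 5.55 with a median of 5.18, and the NICD-OE-HEC values spanned 4.80 to 5.69 with a median of 5.12. NICD-OE-HEC held both the highest and the lowest sample, replicates 2 and 3. Leaving out single arrays moved the difference from -0.16 to 0.02, positive without Control 1 or without NICD-OE-HEC 3.

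Tbxa2r encodes the receptor for thromboxane, the prostanoid that constricts vessels and activates platelets. Control values ran from 6.55 through a median of 6.66 to 6.83. NICD-OE-HEC values ran from 4.19 through a median of 4.90 to 5.34 and lay at least 1.21 below Control. The means were 6.68 ± 0.12 and 4.81 ± 0.48 (SD, n = 6 each), a log2 difference of -1.88 (SE 0.18), 3.67-fold lower. NICD-OE-HEC 3 and 4 were the lowest, at 4.30 and 4.19.

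Alox12 encodes arachidonate 12-lipoxygenase, the platelet-type enzyme that makes a hydroxy fatty acid from arachidonic acid. Control values ran from 6.57 through a median of 7.36 to 7.52, with Control 2 set below the rest. In NICD-OE-HEC the values ran from 4.5 through a median of 4.91 to 5.16, and the nearest samples of the groups were 1.42 apart. The means were 7.25 ± 0.35 and 4.90 ± 0.24 (SD, n = 6 each), a log2 difference of -2.35 (SE 0.16), 5.08-fold lower. Without Control 2 and NICD-OE-HEC 4 the difference was -2.50.

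Alox12 and Tbxa2r are both known from platelets, so platelet and megakaryocyte markers were read on the same arrays. Of 8 measured, 2 were called higher in NICD-OE-HEC and 1 lower, and the list mean ran from 4.60 to 4.77 in Control and from 4.72 to 5.01 in NICD-OE-HEC. The 2 that were higher were the platelet chemokines Pf4 (log2 difference 0.56, SE 0.11) and Ppbp (1.01, SE 0.22). The lower one was Clec1b, a lectin receptor known from platelets, at 9.57 in Control and 8.94 in NICD-OE-HEC. Its Control mean lay above those of all other measured markers of this list, which ran from 2.46 for Gp6 to 4.62 for Ppbp. Whether the Clec1b signal came from platelets was not tested, so its lower value does not by itself mean fewer platelets. The list mean given above includes Clec1b. Gp5 and Gp6, platelet glycoproteins, were below the array median in both groups. The part of platelets in the Alox12 and Tbxa2r values was not tested.

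Ltc4s encodes leukotriene C4 synthase, which joins glutathione to leukotriene A4 to start the cysteinyl leukotrienes. Control values ran from 5.79 through a median of 6.12 to 6.32. NICD-OE-HEC values ran from 3.52 through a median of 4.2 to 4.40, all below Control by at least 1.39. The means were 6.08 ± 0.18 and 4.11 ± 0.33 (SD, n = 6 each), a log2 difference of -1.98 (SE 0.14), 3.94-fold lower. NICD-OE-HEC 4 was lowest, under the array median of 3.67, and without Control 2 and NICD-OE-HEC 4 the difference was -1.84.

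Mast cells and basophils also make cysteinyl leukotrienes, so their markers were read on the same arrays. Of 9 markers 8 lay below the array median in both groups, among them the mast cell protease Cpa3 at 1.52 and 1.62, and 0 were called by limma, with 0 also at an unadjusted p under 0.05. The exception was the histidine decarboxylase gene Hdc at 7.49 in Control and 7.18 in NICD-OE-HEC. The mean of the 9 markers and Ltc4s were both lowest on NICD-OE-HEC 4 (2.46 and 3.52). Within Control both were highest on Control 5 (2.60 and 6.32). Within NICD-OE-HEC the order was not shared, since Ltc4s was highest on NICD-OE-HEC 1 and the marker mean on NICD-OE-HEC 5. The part of mast cells and basophils in the Ltc4s values was not tested.

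Alox5ap encodes the membrane protein that hands arachidonic acid to 5-lipoxygenase. Control values ran from 6.05 through a median of 6.5 to 7.10, and NICD-OE-HEC values from 6.42 through a median of 6.97 to 7.72. The groups overlapped, with means of 6.53 ± 0.36 and 6.94 ± 0.48 (SD, n = 6 each) and a log2 difference of 0.41 (SE 0.21). Single arrays left out moved that difference from 0.25 to 0.52. The highest value of each group was on replicate 1, and these were also the arrays with the highest neutrophil mean, 4.85 in Control and 7.48 in NICD-OE-HEC. Alox5 itself, the enzyme that Alox5ap serves, was below the array median in both groups (2.73 and 3.20 on average) and highest on NICD-OE-HEC 1 at 4.08. Neutrophils and macrophages carry Alox5ap, and their part in its values was not tested.

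**Figure D3:**
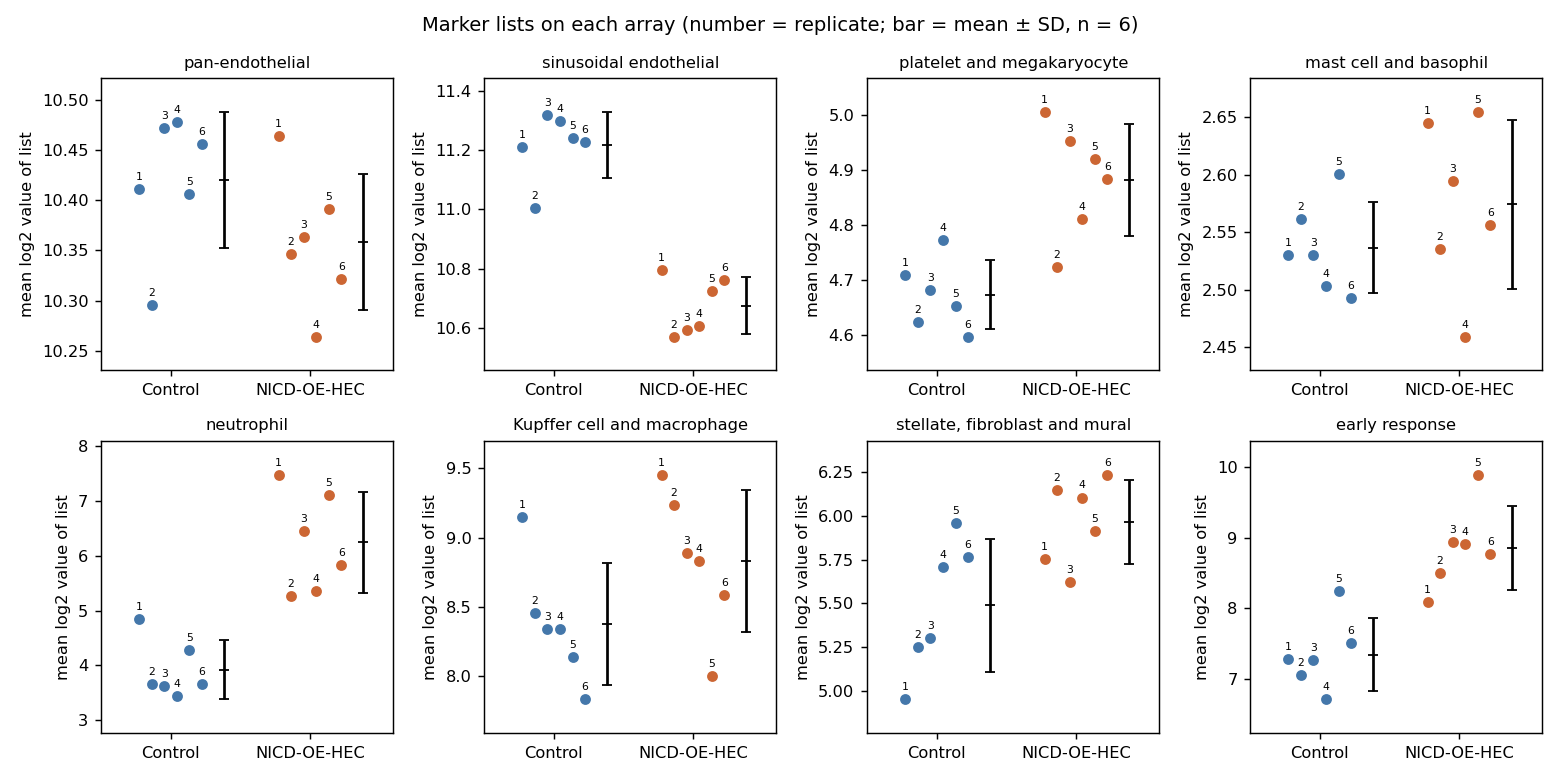
The mean log2 value of 8 marker lists is plotted for every array, Control in blue and NICD-OE-HEC in orange, numbered by replicate, with the group mean and SD as a bar. The neutrophil mean does not overlap between groups (up to 4.85 in Control, from 5.26 in NICD-OE-HEC), the mast cell and macrophage means overlap, and the sinusoidal mean is lower in NICD-OE-HEC.

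Endothelial markers had high values on every array, and so did some markers of other cells. The mean levels of the Kupffer cell gene Clec4f and the hepatocyte gene Alb were at percentiles 99.0 and 99.4 of all probe sets. The mean of 9 pan-endothelial markers ran from 10.30 to 10.48 in Control and from 10.26 to 10.46 in NICD-OE-HEC. By limma 2 of the 9 were called higher, 3 lower and 4 were not called. The higher ones were Mcam, the antigen of the bead selection (8.46 ± 0.22 in Control and 9.38 ± 0.21 in NICD-OE-HEC, SD, n = 6 each, 1.90-fold higher without overlap), and the adhesion molecule Pecam1 (log2 difference 0.33, SE 0.09). The lower ones were the receptor kinases Kdr (-0.60, SE 0.09) and Tek (-0.59, SE 0.08) and the secreted factor Egfl7 (-0.36, SE 0.10). Cdh5, the endothelial cadherin, differed by 0.01 (SE 0.08). Of 8 sinusoidal markers 7 were called lower and Lyve1, a hyaluronan receptor, higher, with a list mean from 11.00 to 11.32 in Control and from 10.57 to 10.80 in NICD-OE-HEC. Hepatocyte markers gave 3 of 9 called higher, stellate, fibroblast and mural markers 4 of 11 higher and 1 lower, cholangiocyte markers 4 of 5 higher and lymphocyte markers 0 of 7 by limma (0 also at an unadjusted p under 0.05). The list means ran from 6.10 to 7.40 and 6.68 to 8.02 for hepatocytes, from 4.95 to 5.96 and 5.62 to 6.23 for stellate and mural cells, from 3.84 to 4.07 and 4.42 to 4.88 for cholangiocytes, and from 3.25 to 3.43 and 2.97 to 3.76 for lymphocytes, Control first. The part of these cells, and of the level of the selection antigen, in the eicosanoid values was not tested.

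The lower genes differed in how evenly they were lower. Hpgd had an SD of 0.14 in Control, at percentile 22.3 of all probe sets, and of 0.49 in NICD-OE-HEC, at percentile 95.5. Tbxa2r went from an SD of 0.12 at percentile 14.2 to one of 0.48 at percentile 95.2. Ltc4s lay between, with an SD of 0.18 at percentile 43.5 in Control and of 0.33 at percentile 83.8 in NICD-OE-HEC. Slco2a1 and Alox12 had the larger SD in Control, at percentiles 89.1 and 87.7, against 61.5 and 64.6 in NICD-OE-HEC. These percentiles are a description of 6 arrays a group and were not tested.

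The deviations of the 8 genes from their group means, over the 12 arrays, were correlated as a description. Pearson's r of the 28 pairs ran from -0.378 for Ptgs2 and Hpgd to 0.592 for Alox12 and Slco2a1, and 6 pairs were below 0. Alox12 and Slco2a1 share their lowest Control array, Control 2. Set against the mean deviations of the marker lists, r was 0.775 for Slco2a1 and 0.685 for Alox12 with the pan-endothelial list. For Tbxa2r it was 0.784 with the lymphocyte list, and for Alox5ap 0.809 with the neutrophil list. With the platelet list it was 0.277 for Alox12 and -0.128 for Tbxa2r. These were picked from many pairs of a gene and a list, and were not tested. The genes with the closest pattern of deviations, out of 11513 named probe sets at or above the array median on average, had r between 0.867 and 0.963. With so many candidates and 12 arrays, values of that size say little about any 1 gene. For Alox12 these were Cant1 (0.963), Vwa7 (0.956) and Dmap1 (0.888), and for Slco2a1 Fndc1 (0.946), Ubl7 (0.945) and Tdp1 (0.942). For Ltc4s they were Uqcrfs1 (0.905), Fkbp15 (0.901) and Slc37a4 (0.890), and for Tbxa2r Ciapin1 (0.922), Tcta (0.917) and B3galnt2 (0.910). Alox5ap was closest to Rnf149 (0.959), Msrb1 (0.950) and Ncf4 (0.929), Ptgs2 to Zswim4 (0.901), Dmwd (0.892) and Hcar2 (0.887), Hpgd to Abr (0.919), Slc25a24 (0.909) and P2ry12 (0.902), and Ptgis to Eif3b (0.884), Sf3b5 (0.869) and Gtf3c4 (0.867).

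The rest of the pathway was read from 82 further genes listed by role, of which 77 were measured, and here each gene was tested with limma over all probe sets. At an adjusted p under 0.05 (Benjamini-Hochberg), 6 rose and 6 fell in NICD-OE-HEC and 65 were not called. The share called was 15.6%, against a background of 10.5% of all probe sets, 4.89% higher and 5.59% lower. In both groups 36 of the 77 lay below the array median. Among the other 41 the share called was 24.4%, against 19.0% of the 13066 probe sets with a group mean at or above that median. The median difference of the 77 was 0.02, and that of all probe sets was -0.01.

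**Figure D4:**
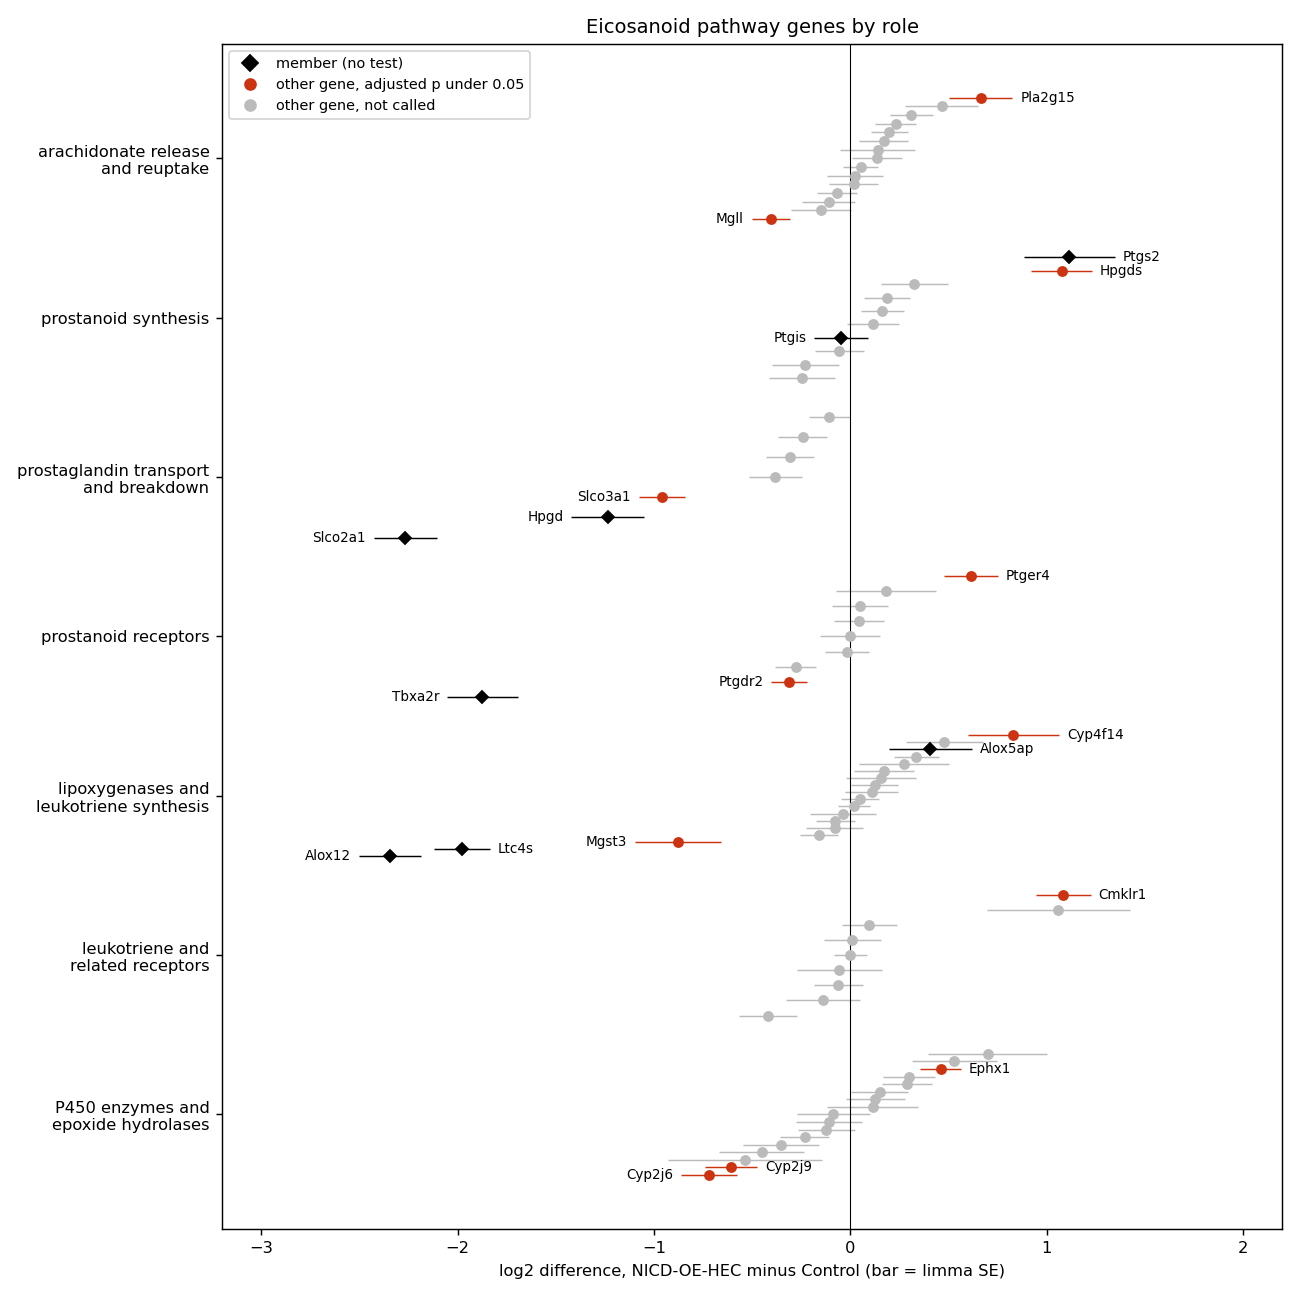
Each point is the log2 difference, NICD-OE-HEC minus Control, of 1 gene of the eicosanoid pathway with limma's SE as a bar, grouped by role. Black diamonds are the 8 genes described without a test, red points the 12 other genes called at an adjusted p under 0.05 and grey points those not called. Slco2a1, Alox12, Ltc4s, Tbxa2r and Hpgd lie left of all other points, and the called points lie between -0.96 and 1.08.

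In transport and breakdown Slco3a1 fell, and the other 4 genes besides Slco2a1 and Hpgd were not called. Slco3a1, a second organic anion transporter that carries prostaglandins, had values of 7.0 to 7.71 in Control (median 7.44) and 6.25 to 6.61 in NICD-OE-HEC (median 6.5), with no overlap. Its log2 difference was -0.96 (SE 0.12, limma adjusted p = 5.44e-05), 1.95-fold lower. The other differences were also below 0. They belong to the efflux pump Abcc4 (-0.11) and the reductases Ptgr1 (-0.31), Ptgr2 (-0.24) and Zadh2 (-0.38), which act on prostaglandins after Hpgd.

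In prostanoid synthesis Hpgds rose, and the other 7 genes besides Ptgs2 and Ptgis were not called. Hpgds, the glutathione-dependent synthase of prostaglandin D2, ran from 3.05 to 3.56 in Control (median 3.43) and from 3.77 to 4.88 in NICD-OE-HEC (median 4.54), with no overlap. The log2 difference was 1.08 (SE 0.15, limma adjusted p = 2.16e-04), from a Control mean under the array median. NICD-OE-HEC 5, the array with the lowest macrophage mean of its group, was also lowest for Hpgds. Macrophages and megakaryocytes carry Hpgds, and their part was not tested. The thromboxane synthase gene Tbxas1 differed by 0.33 (SE 0.17, limma adjusted p = 0.295) and the prostaglandin E synthase gene Ptges by 0.11 (SE 0.13, limma adjusted p = 0.718). Ptgs1, the constitutive cyclooxygenase, was not analysed here.

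Among the prostanoid receptors other than Tbxa2r, Ptger4 rose, Ptgdr2 fell and 6 of 8 were not called. Ptger4, a prostaglandin E2 receptor that raises cyclic AMP, ran from 3.09 to 3.80 in Control (median 3.61) and from 3.89 to 4.42 in NICD-OE-HEC (median 4.18). Its log2 difference was 0.61 (SE 0.14, limma adjusted p = 0.00842), again from a Control mean under the array median. Ptgdr2, a prostaglandin D2 receptor, lay under the array median in both groups (log2 difference -0.31, SE 0.09, limma adjusted p = 0.0403). With arrays left out one at a time, it was called only without Control 1 or without NICD-OE-HEC 1, and its adjusted p reached 0.0942. The prostacyclin receptor Ptgir differed by -0.02 (SE 0.11, limma adjusted p = 0.961).

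Among the 15 other genes of lipoxygenases and leukotriene synthesis Mgst3 fell and Cyp4f14 rose. Mgst3, a microsomal glutathione transferase of the family of Ltc4s and Alox5ap, ran from 5.83 to 6.35 in Control (median 6.09) and from 4.40 to 5.95 in NICD-OE-HEC (median 5.32). The log2 difference was -0.88 (SE 0.22, limma adjusted p = 0.0157), and NICD-OE-HEC 3 and 4 were lowest, as for Tbxa2r. Its relative Mgst2, which can also make leukotriene C4, differed by -0.08 (SE 0.15, limma adjusted p = 0.832). Lta4h, which makes leukotriene B4, differed by -0.08 (SE 0.10, limma adjusted p = 0.746). Cyp4f14, a P450 that oxidizes leukotriene B4, was under the array median in both groups (log2 difference 0.83, SE 0.23, limma adjusted p = 0.0322) and was not called when Control 2, 3 or 4 or NICD-OE-HEC 1, 2, 5 or 6 was left out, with an adjusted p up to 0.0755. The lipoxygenases Alox15, Alox8, Alox12b, Alox12e and Aloxe3 lay below the array median in both groups and were not called.

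Of the 9 leukotriene and related receptors Cmklr1 rose and 8 were not called. Cmklr1, the chemerin receptor that is also described as a resolvin receptor, ran from 5.93 to 6.25 in Control (median 6.02) and from 6.68 to 7.51 in NICD-OE-HEC (median 7.27). Its log2 difference was 1.08 (SE 0.14, limma adjusted p = 8.60e-05), 2.12-fold higher. Cysltr2, the endothelial receptor of cysteinyl leukotrienes, differed by -0.42 (SE 0.15, limma adjusted p = 0.0913). Fpr2, a formyl peptide and lipoxin receptor of neutrophils, differed by 1.06 (SE 0.36, limma adjusted p = 0.0842). Macrophages and neutrophils carry Cmklr1 and Fpr2, and the part of these cells was not tested.

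Of 15 genes of arachidonate release and reuptake, Pla2g15 rose and Mgll fell. Pla2g15, a lysosomal phospholipase, had a log2 difference of 0.66 (SE 0.16, limma adjusted p = 0.0143). Mgll, the lipase that frees arachidonic acid from monoacylglycerol, had one of -0.41 (SE 0.10, limma adjusted p = 0.0122). The cytosolic phospholipase Pla2g4a, the main source of arachidonic acid in many cells, differed by 0.46 (SE 0.19, limma adjusted p = 0.149).

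Of 17 P450 and epoxide hydrolase genes Ephx1 rose and Cyp2j6 and Cyp2j9 fell. Cyp2j6 and Cyp2j9, members of the epoxygenase family that turns arachidonic acid into epoxides, had log2 differences of -0.72 (SE 0.14, limma adjusted p = 0.00329) and -0.61 (SE 0.13, limma adjusted p = 0.00703). Cyp2j6 ran from 5.47 to 5.96 in Control and from 4.48 to 5.44 in NICD-OE-HEC, without overlap. Ephx1, the microsomal epoxide hydrolase, had a log2 difference of 0.46 (SE 0.10, limma adjusted p = 0.00889). Ephx2, the soluble hydrolase that degrades these epoxides, differed by 0.70 (SE 0.30, limma adjusted p = 0.186). Hepatocytes carry many of these enzymes, and 3 of 9 hepatocyte markers were called higher in NICD-OE-HEC, as given above. The hepatocyte markers Ass1 (log2 difference -0.69, SE 0.23) and Cyp2e1 (-0.33, SE 0.35) differed the other way and were not called. The part of hepatocytes in the values of these enzymes was not tested.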

How the data were processed

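The deposited table holds log2 values that the authors computed by RMA, per the submitters' processing notes. RMA subtracts background, equalizes quantiles and summarizes probes. The software, the chip definition and the build are each not given in the sources used. Quantiles were nearly equal on all 12 arrays, so a shift of most genes one way would not show, and there were no detection calls. Symbols came from the platform annotation of 2018 (24705 of 25428 probe sets with 1 symbol, 723 with none). Differences are NICD-OE-HEC minus Control from limma 3.58.1 in R 4.3.3 (lmFit, eBayes, 2 groups, no covariates), fitted over all probe sets, two-sided, with Benjamini-Hochberg adjustment. SE is limma's moderated error and SD the spread of the 6 samples of a group, named biological replicates in the labels. The number of arrays limits the precision. In simulated data for this comparison over 25428 probe sets, changes of log2 0.5, 1 and 2 were recovered in 37.7%, 88.2% and 100% of cases.

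Members, lists and motifs were chosen with earlier results of these data known. Named were the 8 members, in each role list up to 4 called genes by size, and the 3 closest patterns per member. Uncalled genes were named to complete the account of a role, after their values were seen. Of the 82 other genes listed, 5 were not analysed here. Start site sequences are RefSeq's (GRCm38.p6), and 2 members without an entry were not used there. Alternatives are in the closing section.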

Additional observations from a re-analysis of the deposited data

Results flagged for a closer look

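Among the 40 groups of 6 arrays checked for the 8 genes and the 12 other genes named by size, 4 held an array set far from the others, against about 1 in 20 expected by chance. Alox12 was 6.57 on Control 2, with the other Control arrays between 7.21 and 7.52. Mgll was 7.74 on Control 2, with the others between 8.13 and 8.28. Hpgds was 3.77 on NICD-OE-HEC 5, with the others between 4.48 and 4.88. Ephx1 was 7.47 on Control 5, with the others between 7.08 and 7.19.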

How the results depend on the processing

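The log2 differences of the 8 genes moved by less than the mean of the SDs of the 2 groups under median centring, a further quantile normalization, filters on the dimmest 25 or 50 percent, array weights, robust eBayes with a trend, the replicate block, each array left out and, chosen after seeing the data, both arrays apart on the second component left out. Over single arrays left out, Alox12 ran from -2.48 to -2.27, Slco2a1 from -2.39 to -2.19, Ltc4s from -2.04 to -1.86, Tbxa2r from -1.98 to -1.75, Hpgd from -1.34 to -1.07 and Ptgs2 from 0.99 to 1.27. Hpgd without NICD-OE-HEC 5 (-1.07) and Tbxa2r without NICD-OE-HEC 4 (-1.75) moved by more than their small Control SDs of 0.14 and 0.12. Over the same fits 5 to 7 of the other eicosanoid genes rose and 5 to 6 fell. With an absolute log2 difference of at least 1 as well, 2 of them rose and 0 fell by limma (6 and 6 without that size), and over all probe sets 330 rose and 201 fell (1244 and 1422 without it). With the replicate block 9 rose and 6 fell (1294 and 1213 over all probe sets). The labels do not say what a shared number means. The deviations of same-numbered arrays correlated between -0.10 and 0.22, over 0.1 in 3 of 6 pairs, and 3 of 6 Control arrays correlated best with their own number. Replicate 1 held the highest neutrophil, macrophage and hepatocyte mean in both groups. The main fit did not pair the samples, and whether a number marks a shared batch cannot be told from the labels. Of the 12 named genes called, Ptgdr2 lost its call with the trend, with the replicate block (adjusted p = 0.105) and without both arrays apart (adjusted p = 0.107), and Cyp4f14 lost it without those arrays (adjusted p = 0.0535). The cause was not tested. Without the dimmest 50 percent, neither was tested. Signals below the median of an array may be background.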
